A study of Mus musculus with 11 samples.

Results

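Wdr92 and Cfap43 are 2 genes of the machinery that builds and moves cilia, and they are 2 of the 1293 genes held from a mouse RNA-seq table. They were found by their gene symbols in the table. They had been picked for study because earlier results of these data placed them among the larger differences between CKO and control libraries once a trend with transcript length was removed. Their difference between CKO and control is therefore described here and not tested.

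The libraries are poly(A) RNA of fibroblasts taken from the infarcted left ventricle, 3 days after myocardial infarction, and all were sequenced in bulk. CKO mice lack Pw1, an imprinted zinc-finger gene whose symbol is Peg3, in cells where Cre is driven by Pdgfra, a receptor gene of fibroblasts and other mesenchymal cells. Control replicates 1 to 3 are described as wild type, Pw1 fl/+ or Pw1 fl/fl without saying which library is which, and control replicates 4 to 6 as Pw1 fl/fl. CKO replicates 1 to 3 are Pdgfra-Cre;Pw1 fl/fl, and 2 further CKO libraries, called CKO a and CKO b here, are PDGFRa Cre+;Pw1 fl/fl. The difference in wording splits the libraries into set 1 (control 1 to 3 and CKO 1 to 3) and set 2 (control 4 to 6, CKO a and CKO b). The labels do not say that Cre alone was given to any control, nor the ages or sexes of the mice, nor whether replicates are single animals. The p-values therefore measure the spread between these libraries, which may be technical. Peg3 itself was not analysed here, so the deletion was not checked.

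The 6 control libraries had 20537043 to 20826481 reads, as recovered from the table, and CKO 1 to 3 had 20522383 to 20775062. The genes held took 2.95% to 3.05% of the reads in the controls and 2.86% to 2.89% in CKO 1 to 3. For CKO a and CKO b, totals of 18574278 and 18844609 were estimated. The mean transcript length of the whole library was 2167 to 2294 nt in the controls and 1540 to 1675 nt in CKO 1 to 3, so the libraries of the groups stood apart in this measure. Of the markers fixed for cell types, Col16a1 was the 1 of 13 fibroblast markers held, at 104 to 139 CPM in the controls and 14.6 to 29.8 CPM in the CKO libraries. None of the 16 markers of multiciliated cells, 12 of cardiomyocytes or 10 of endothelial cells was among the genes held, so the labelled cell type was checked by Col16a1 alone. In bulk RNA, fewer cells of a type and less RNA per cell cannot be told apart. Col16a1 also has an effective transcript length of 5190 nt. Of 197 tested genes over 4000 nt, 145 were called lower in CKO by the test given below. The part of transcript length in its lower level was not tested.

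Motile cilia and sperm flagella beat because dynein arms, large motor complexes on the microtubule doublets, slide the doublets along each other. The arms are put together in the cytoplasm by assembly factors before they are carried into the cilium. Wdr92, a WD-repeat protein also known as Monad, is such a factor, and it works with the R2TP chaperone complex. Cfap43 is a large WD-repeat protein of the axoneme of sperm flagella and motile cilia. Fibroblasts carry a single primary cilium, which lacks dynein arms and does not beat.

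Wdr92 (gene ID 103784) lies on the plus strand of GRCm38 chromosome 11, from 17211893 to 17235200, and Cfap43 (gene ID 100048534) on the minus strand of chromosome 19, from 47736857 to 47837454. Both are protein-coding. Their upstream sequences are shown because promoters of cilia genes often carry binding sites of RFX factors. Each is the RefSeq sequence of the 250 bases before the start used for the promoter in GRCm38.p6, 5′ to 3′ on the gene's own strand. For Wdr92 that start is the gene's start given above. For Cfap43 it lies inside the gene span given above, so the end of the printed sequence overlaps that span. The places are chr11:17211643-17211892 and chr19:47837362-47837611. Capitals mark matches to the motifs searched, on either strand.
Wdr92: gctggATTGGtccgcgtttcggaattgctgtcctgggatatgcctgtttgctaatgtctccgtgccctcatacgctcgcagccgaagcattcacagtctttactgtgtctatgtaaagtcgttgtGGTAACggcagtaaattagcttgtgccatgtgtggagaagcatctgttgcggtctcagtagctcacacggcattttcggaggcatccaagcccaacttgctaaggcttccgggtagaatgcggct
Cfap43: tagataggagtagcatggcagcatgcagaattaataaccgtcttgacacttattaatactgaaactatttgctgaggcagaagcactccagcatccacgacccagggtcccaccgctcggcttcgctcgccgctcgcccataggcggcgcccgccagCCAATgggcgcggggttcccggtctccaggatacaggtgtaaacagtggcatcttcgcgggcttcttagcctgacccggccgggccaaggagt
The motifs were searched on both strands in the 300 bases from 250 before to 50 after each start, for these genes and for all 32817 promoters of the same table. The short RFX motif GTTACC was found in Wdr92 at position -125 on the reverse strand, where the printed strand reads GGTAAC, and again at position 38 beyond the start, outside the printed bases. That motif occurs in 7.22% of all promoters. The other short RFX motif searched, GTTGCC, occurs in 12.5% of promoters and was in neither window. The CCAAT box was in both windows, at -245 on the reverse strand in Wdr92 (printed as ATTGG) and at -93 in Cfap43. Positions are counted from the start used for the promoter, and the Cfap43 match lies at the very beginning of the gene span given above, not before it. The box occurs in 37.4% of promoters. The TATA box TATAAA, which occurs in 13.6% of promoters, was in neither. The motifs searched do not overlap at these positions, and a match is a run of letters, not a binding site. The Cfap43 window was richer in G and C (61.0%, with 25 CpG pairs) than the Wdr92 window (51.3%, with 14 CpG pairs), against medians of 52.7% and 7 over all promoters.

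Wdr92 was a moderately expressed gene in these fibroblasts. Its estimated read count was 1577, 1536, 1593, 1578, 1640 and 1557 in control 1 to 6. It was 5927, 5876 and 6090 in CKO 1 to 3, and 4562 in CKO a and 4799 in CKO b. Every CKO library had more reads on Wdr92 than every control library, although CKO a and CKO b were the shallower ones.

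TMM scaling sets libraries to a common level from the bulk of the 770 genes tested, which are only a part of each library. Its factors were 1.11 to 1.14 in the controls and 0.89 to 0.95 in CKO 1 to 3. In CKO a and CKO b they were 0.77 and 0.81. They raise CKO levels relative to controls, and most in CKO a and CKO b. The CPM levels, the differences and the evenness of a gene across the CKO libraries rest on them. After this scaling Wdr92 stood at 68.9, 65.3, 67.5, 67.3, 70.5 and 67.9 CPM (counts scaled to library size) in control 1 to 6. In the CKO libraries it stood at 324, 300.3 and 311 CPM in CKO 1 to 3, 318 in CKO a and 316 in CKO b. On this scale the groups did not overlap and each was tight. The means were 67.9 ± 1.73 CPM (SD, n = 6) in the controls and 314 ± 9.01 CPM (SD, n = 5) in the CKO libraries. For scale, 27.1% of the 770 genes tested were higher in every CKO library than in any control, and the groups of 56.4% did not overlap in either direction. The difference in Wdr92 was 2.21 on the log2 scale (SE 0.05), or 4.63-fold, the 33rd highest of the 770 genes tested. Its pooled SD on the log2 CPM scale within a group was 0.039.

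Cfap43 was close to the lower end of what these libraries could measure. Its estimated read count was 36.1, 39.3, 39.3, 24.9, 32.9 and 34.8 in control 1 to 6. Control 4 was the lowest, and the exact 95% Poisson interval of its count, 16.2 to 36.9 reads, takes in the counts of control 1, control 5 and control 6. The count was 79.1, 75.2 and 68.4 in CKO 1 to 3, and 98.9 in CKO a and 103.8 in CKO b. The interval of the lowest CKO count, 52.8 to 86.2 reads in CKO 3, lies above all 6 control counts but overlaps the upper end of the interval of control 2, at 53.3 reads. These intervals cover counting error only.

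On the CPM scale Cfap43 stood at 1.57, 1.66, 1.65, 1.07, 1.42 and 1.53 in control 1 to 6. In the CKO libraries it stood at 4.32, 3.83 and 3.48 in CKO 1 to 3, 6.90 in CKO a and 6.85 in CKO b. The groups did not overlap, but the CKO libraries fell into a lower trio from set 1 and a higher pair from set 2. The means were 1.48 ± 0.222 CPM (SD, n = 6) in the controls and 5.08 ± 1.67 CPM (SD, n = 5) in the CKO libraries. The difference was 1.75 on the log2 scale (SE 0.21), or 3.37-fold, the 58th highest of the 770 genes. Its pooled SD on the log2 CPM scale within a group was 0.36.

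**Figure D1:**
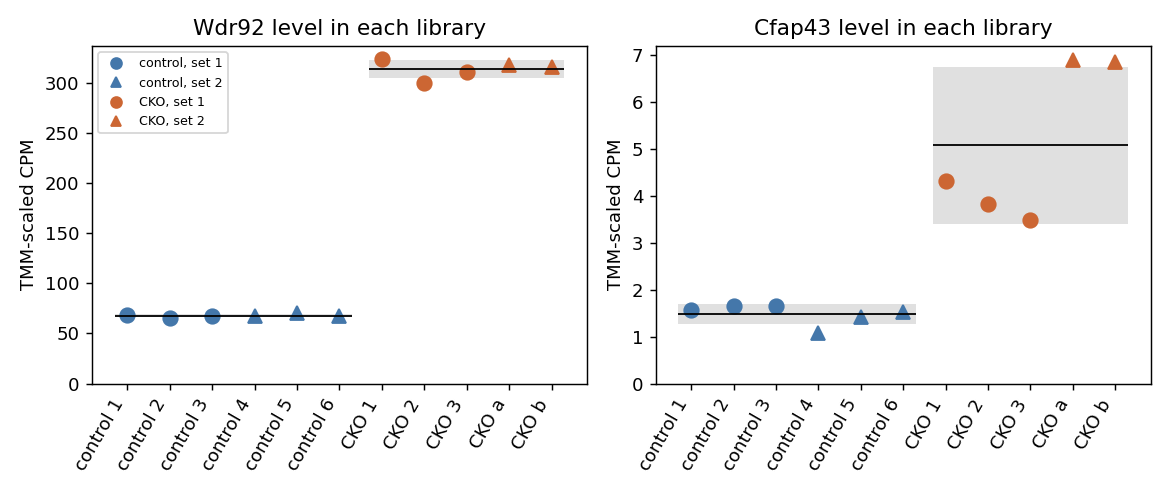
TMM-scaled CPM (vertical axis, from 0) of Wdr92 (left) and Cfap43 (right) in each library, with circles for set 1, triangles for set 2, lines for the group means and grey bands for 1 SD. Wdr92 lies between 65.3 and 70.5 CPM in the controls and between 300.3 and 324 CPM in the CKO libraries, and Cfap43 is higher in CKO a and CKO b than in CKO 1 to 3.

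Per length, on the authors' TPM scale, Wdr92 was the far more abundant transcript. It stood at 50.98, 48.34, 49.54, 51.87, 50.52 and 48.25 TPM in control 1 to 6 and at 130.66, 138.34 and 145.25 TPM in CKO 1 to 3, with means of 49.9 ± 1.46 (SD, n = 6) and 138 ± 7.30 (SD, n = 3). Cfap43 stood at 0.67, 0.71, 0.70, 0.47, 0.58 and 0.62 TPM in the controls and at 1.00, 1.02 and 0.94 TPM in CKO 1 to 3, with means of 0.625 ± 0.0905 (SD, n = 6) and 0.987 ± 0.0416 (SD, n = 3). Neither gene's groups overlapped on this scale, where 10.9% of 808 genes were higher in CKO 1 to 3 than in any control and 68.6% did not overlap in either direction. The ratio of Wdr92 to Cfap43 TPM was 68.1 to 110 in the controls and 131 to 155 in CKO 1 to 3. TPM of CKO a and CKO b could not be tied to a sample and was not used.

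The size of the difference depended on the scale for both genes, and more so for Cfap43. On log2(TPM + 1) it was 1.46 (SE 0.06) for Wdr92 and 0.23 (SE 0.10) for Cfap43, over the controls and CKO 1 to 3. A pseudocount of 1 is larger than the control level of Cfap43, and on log2(TPM + 0.1) the differences were 1.47 (SE 0.06) and 0.45 (SE 0.22). With the recovered library totals as the only scaling of the counts they were 1.94 (SE 0.05) and 0.97 (SE 0.17). With the trend on transcript length removed from each library they were 2.62 (SE 0.06) and 2.55 (SE 0.25). TPM is divided by the summed abundance of all transcripts, which moved with the mean transcript length above. Both genes were higher in CKO on all these scales.

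**Figure D2:**
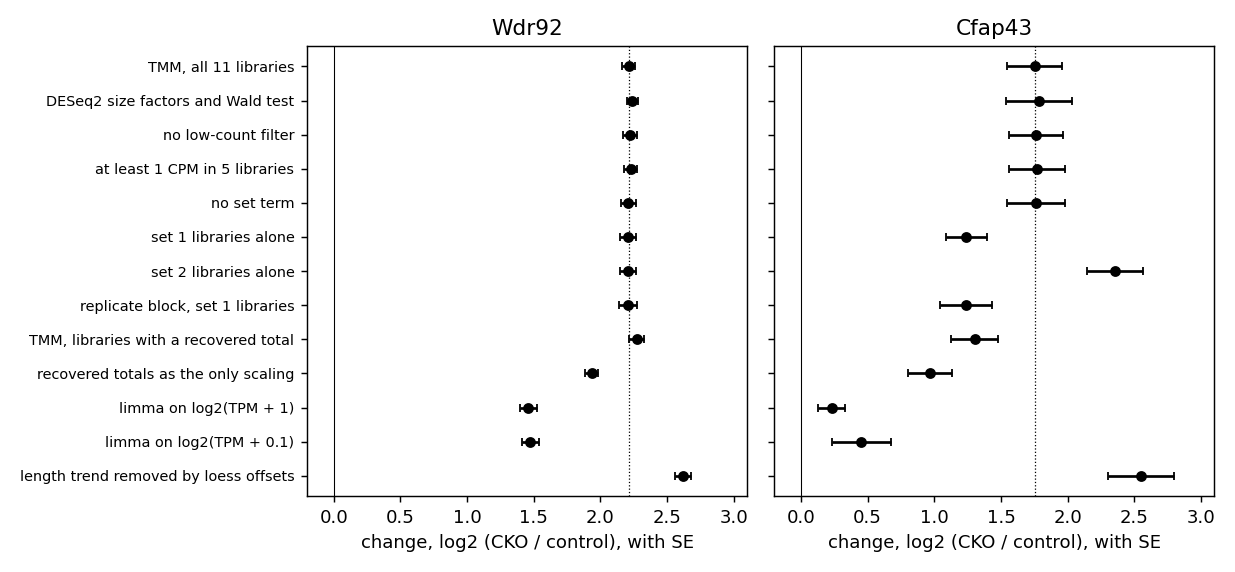
Difference between CKO and control, as log2 with SE (horizontal axis), of Wdr92 (left) and Cfap43 (right) under each scaling, filter or choice of libraries (vertical axis). All points lie to the right of 0, Wdr92 between 1.46 and 2.62 and Cfap43 between 0.23 and 2.55, with dotted lines at the values reported first.

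Over all genes tested, the difference between CKO and control ran with transcript length, and both genes lay above that trend. The counts and FPKM of Wdr92 imply an effective transcript length of 3398 to 3399 nt in the controls and 3402 to 3404 nt in CKO 1 to 3. The only protein-coding Wdr92 transcript of GENCODE M21 is 2002 nt long, and its gene model ends at 17233796, short of the RefSeq end. For Cfap43 the implied length was 5826 to 6060 nt in the controls and 5920 to 5936 nt in CKO 1 to 3, beside 5968 nt for the longest GENCODE transcript, Cfap43-204. Neither gene's implied length differed by more than a few nucleotides between the group means, at 3399 and 3403 nt for Wdr92 and 5929 and 5929 nt for Cfap43.

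Among the 295 tested genes with effective lengths of 2000 to 4000 nt, 91 rose and 110 fell, with a median difference of -0.11 on the log2 CPM scale, and Wdr92 was the 7th highest. Among the 197 genes over 4000 nt, 13 rose and 145 fell, with a median of -0.74, and Cfap43 was the 2nd highest. Genes under 1000 nt had a median of 1.44. A gene was counted as risen or fallen where its adjusted p in edgeR's quasi-likelihood test was under 0.05. By that rule 71.4% of the 770 genes were called, 262 higher (34%) and 288 lower (37.4%). The split moved with the scaling, to 177 higher and 360 lower with recovered totals, 96 and 495 with log2(TPM + 1), and 313 and 214 with the length trend removed. The median difference of all genes moved likewise, from -0.06 to -0.32, -0.54 and 0.12. Both members were chosen on this contrast, and after the length trend was removed Wdr92 and Cfap43 ranked 11th and 13th of 738 genes. Leaving out predicted gene names, they stood 3rd and 4th, after Ifi206 and Rdh9 and before Slco2b1, which was at 2.39.

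**Figure D3:**
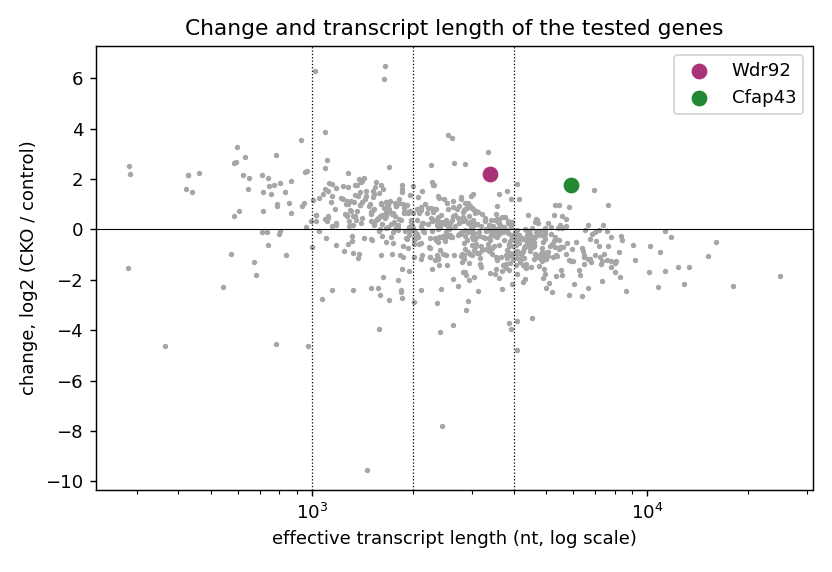
Difference between CKO and control (vertical axis, log2) against effective transcript length (horizontal axis, nt, log scale) for the tested genes with a length, in grey, with Wdr92 and Cfap43 in colour and dotted lines at 1000, 2000 and 4000 nt. The grey points fall as length rises, and Wdr92 at 2.21 and Cfap43 at 1.75 lie near the top of the points of their length.

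The label sets gave a comparison that had no part in choosing the genes. The Wdr92 difference was 2.22 on the log2 scale (SE 0.05) in set 1 and 2.19 (SE 0.05) in set 2. The difference between the sets was -0.02 (95% interval -0.20 to 0.15, edgeR quasi-likelihood adjusted p = 0.819). A difference of a size within that interval is not excluded. This difference turned positive with the length trend removed, with the value given in the closing section. In Cfap43 the difference was 1.25 (SE 0.16) in set 1 and 2.34 (SE 0.18) in set 2. Set 2 exceeded set 1 by 1.09 (SE 0.24, 95% interval 0.53 to 1.66, edgeR quasi-likelihood adjusted p = 0.00532). It was 0.96 to 1.20 with each library left out in turn and 1.35 with the length trend removed.

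A larger CKO difference in set 2 was not rare in the table. The difference between sets passed the test in 38.6% of the 844 genes tested for it, and 16.7% were called with set 2 above set 1. Beside Cfap43, the hemoglobin gene Hbb-bs and the monocyte gene Ly6c2 also stood highest in CKO a and CKO b. The other hemoglobin gene held, Hbb-bt, did not, at 1.81 CPM in CKO 1, 1.81 in CKO a and 1.45 in CKO b. Hbb-bs, Hbb-bt and Ly6c2 have effective lengths of 593, 585 and 788 nt, in the class under 1000 nt whose median difference was 1.44. Ly6c2, the 1 of 13 macrophage and monocyte markers held, was at 56.8 to 76.5 CPM in the controls, 77.4 to 109 CPM in CKO 1 to 3, and 221 and 208 CPM in CKO a and CKO b. Hbb-bs and Hbb-bt, the 2 of 7 erythroid markers held, summed to 1.81 to 3.43 CPM in the controls and 9.97 to 31.2 CPM in the CKO libraries. The part of other cells, of transcript length and of label set in the levels of Wdr92 and Cfap43 was not tested.

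The controls alone gave the other comparison free of the choice. Wdr92 was 67.2 ± 1.80 CPM (SD, n = 3) in the controls of set 1 and 68.6 ± 1.69 CPM (SD, n = 3) in those of set 2, a log2 difference of 0.02 (SE 0.05, 95% interval -0.09 to 0.14, edgeR quasi-likelihood adjusted p = 0.862). Cfap43 was 1.63 ± 0.0478 CPM (SD, n = 3) and 1.34 ± 0.240 CPM (SD, n = 3), a log2 difference of -0.29 (SE 0.17, 95% interval -0.69 to 0.11, edgeR quasi-likelihood adjusted p = 0.391). Neither passed, where 7.94% of the 844 genes did. The controls of set 1 and set 2 are thus not shown to differ in either gene, despite the mixed genotypes given for set 1.

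Other cilia and dynein genes moved in both directions. Of 365 genes in 6 lists, 21 besides Wdr92 and Cfap43 were held and 17 were tested, of which 6 rose, 6 fell and 5 did not pass, against 34% and 37.4% of all genes. Their median difference was 0.07 on the log2 CPM scale, against -0.06 for all genes tested. The same 17 genes gave 3 rises and 7 falls with recovered totals, 2 and 12 with log2(TPM + 1), and 7 and 6 with the length trend removed. No other gene of the 39 of dynein arm assembly and the R2TP complex was held, so Wdr92 could not be set beside its partners.

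The list genes Dnal1, Dynlt1a, Wdr90, Bbs4 and Tmem17 are named here after their values were seen. The 1 axonemal dynein gene tested was Dnal1, a light chain of the outer arm. Its level was 3.26 ± 0.648 CPM (SD, n = 6) in the controls and 0.952 ± 0.304 CPM (SD, n = 5) in the CKO libraries, and it fell by 1.80 on the log2 scale (SE 0.21, edgeR adjusted p = 2.1e-05). It thus moved against Wdr92, and it was at -1.01 on log2(TPM + 1) and -1.05 with the length trend removed. Of the 3 cytoplasmic dynein genes tested, all near copies of the light chain gene Dynlt1, 1 rose, 1 fell and 1 did not pass. Dynlt1c rose by 2.04 (SE 0.17), and was at 1.05 with the length trend removed and 0.87 on log2(TPM + 1). Dynlt1a fell by 1.55 (SE 0.30), and was at -0.84 and -0.79 on those scales. Dynlt1f was at 0.44 (SE 0.19). Reads may be split between these copies by the counting, which makes their levels uncertain.

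Of the 5 tested axoneme genes besides Cfap43, 3 rose and 1 fell. The fall was the largest of these changes: Wdr90, a WD-repeat protein of centrioles and cilia, fell by 2.16 (SE 0.26), and was at -1.39 with the length trend removed and -1.08 on log2(TPM + 1). Gas8, a subunit of the nexin-dynein regulatory complex, rose by 1.01 (SE 0.24), but was at 0.07 with recovered totals and at -0.11 on log2(TPM + 1). Its controls were at 25.2 CPM in set 1 and 16.1 CPM in set 2. That log2 difference of -0.65 passed the test (edgeR quasi-likelihood adjusted p = 0.00601), so its larger set 2 difference rests in part on lower controls. Ttll3, a tubulin glycylase, rose by 0.82 (SE 0.14), but was at 0.23 with recovered totals and at -0.39 on log2(TPM + 1). Cdk20, a kinase of cilium length, rose by 1.04 (SE 0.11), and was at 0.49 with recovered totals and 0.04 on log2(TPM + 1). Rsph3b, a radial spoke gene with a near copy, was at 0.46 (SE 0.22) and did not pass.

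Of 7 tested genes of intraflagellar transport, the BBSome and the transition zone, 2 rose and 3 fell. Bbip1, a subunit of the BBSome coat, rose by 1.28 (SE 0.09), and was at 0.85 with recovered totals and 0.38 on log2(TPM + 1). Unc119b, a carrier of lipid-modified cargo into the cilium, rose by 0.25 (SE 0.06), and was at -0.13 with recovered totals and -0.57 on log2(TPM + 1). Its controls differed between sets as well, by -0.24 (edgeR quasi-likelihood adjusted p = 0.0347). Ccp110, which caps centrioles, fell by 2.33 (SE 0.47), but by 1.42 in set 1 alone and 4.13 in set 2 alone, and was at -1.36 with TMM over the libraries with a recovered total. Ift140, a subunit of the retrograde transport complex, fell by 1.07 (SE 0.12), and was at -0.36 (SE 0.14) with the length trend removed and -1.45 on log2(TPM + 1). Both have effective lengths over 4000 nt, the class in which 145 of 197 genes fell. The same holds for Dnal1 (5594 nt), Dynlt1a (4927 nt) and Wdr90 (6038 nt), which also fell. Of the genes that rose, Dynlt1c (647 nt) is in the class under 1000 nt, in which 35 of 52 rose. Cdk20 (1822 nt) and Gas8 (1871 nt) are in the class of 1000 to 2000 nt, in which 109 of 194 rose. Bbip1 (2076 nt), Ttll3 (2547 nt) and Unc119b (3612 nt) are in the class of 2000 to 4000 nt, in which 91 of 295 rose. Bbs4, another BBSome subunit, fell by 0.32 (SE 0.10), a call lost in either set alone and with the length trend removed (-0.23). Tmem17, of the transition zone, was at -0.46 (SE 0.32) and did not pass. The kinase gene Csnk1d was at 0.07 (SE 0.05), and E2f4, a transcription factor used in the making of multiciliated cells, at 0.06 (SE 0.11). Neither passed, and both were negative on log2(TPM + 1). Csnk1d was called lower on that scale, at -0.66, and called higher with the length trend removed, at 0.55. E2f4 was called higher in set 1 alone, at 0.31, and called lower in set 2 alone, at -0.28.

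**Figure D4:**
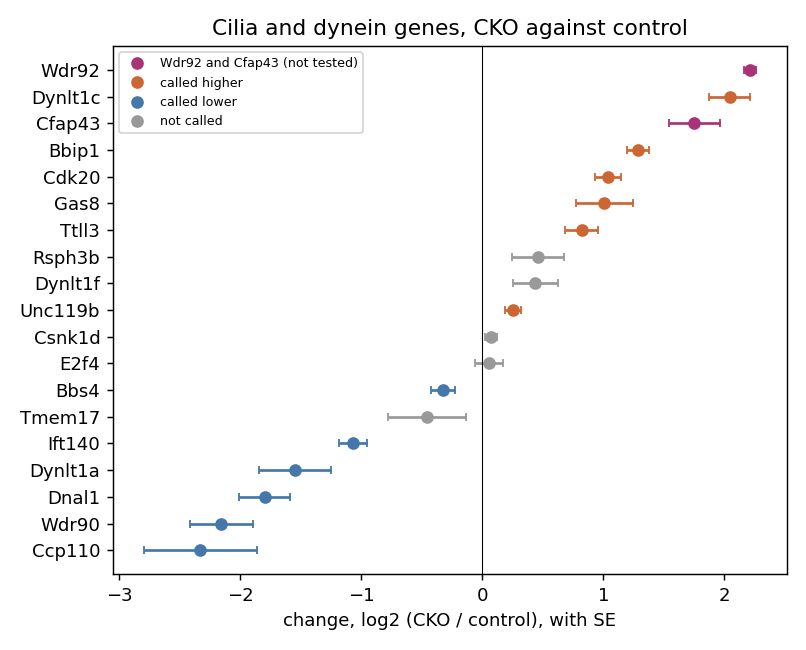
Difference between CKO and control, as log2 of CPM with SE (horizontal axis), for Wdr92, Cfap43 and the 17 tested genes of the cilia and dynein lists (vertical axis), coloured by call. The list genes run from Ccp110 at -2.33 to Dynlt1c at 2.04, with 6 called higher and 6 called lower, and Wdr92 at 2.21 stands above them all on this scale.

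The genes with the closest profiles to Wdr92 over the 11 libraries, by the root mean square difference of log2 CPM centred on each gene's mean, were Cmtm7 (0.236), Nsun5 (0.246), D8Ertd738e (0.281) and Slco2b1 (0.334). Nsun5 is a ribosomal RNA methyltransferase and Slco2b1 an organic anion transporter. All 4 rose, by 1.80 to 2.45 on the log2 scale, a direction fixed by choosing them for their likeness. On TMM-scaled CPM Wdr92 spanned 300.3 to 324 CPM across the CKO libraries. Cmtm7, Nsun5 and D8Ertd738e each had a larger difference in set 2 than in set 1 that passed the test. Slco2b1 did not, with a difference between sets of 0.18 (SE 0.34, edgeR quasi-likelihood adjusted p = 0.702). It stood at only 2.30 to 2.96 CPM in the CKO libraries, where counting error is larger. Its evenness therefore could not be set against that of Wdr92. Slco2b1 was the one of the 4 whose effective length, 4097 nt, exceeded that of Wdr92. With the length trend removed Wdr92 was at 2.62. Cmtm7 was then at 1.75, Nsun5 at 1.93, D8Ertd738e at 1.17 and Slco2b1 at 2.39.

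The closest to Cfap43 were Wfdc17 (0.0812), Ndufb11 (0.139), Gpr137 (0.162) and Napa (0.169). Wfdc17 encodes a secreted WAP-domain protein, Ndufb11 a subunit of respiratory complex I, and Napa the SNARE adaptor alpha-SNAP. All 4 rose, by 1.62 to 1.84, and all had a larger difference in set 2 that passed the test, as Cfap43 did, which choosing by likeness also favours. Their effective lengths were 422, 802, 1544 and 1854 nt, all well short of the 5921 nt of Cfap43. The profiles were matched on CPM, which still carries the length trend. With that trend removed Cfap43 was at 2.55. All 4 were then below 1.76, the value of the 15th highest gene when predicted names are left out. The part of transcript length in the likeness was not tested. Pearson's r over the 11 libraries was 0.968 to 0.986 for the Wdr92 group and 0.983 to 0.996 for the Cfap43 group. These values describe the profiles, whose points share the groups, the sets and the scaling.

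**Figure D5:**
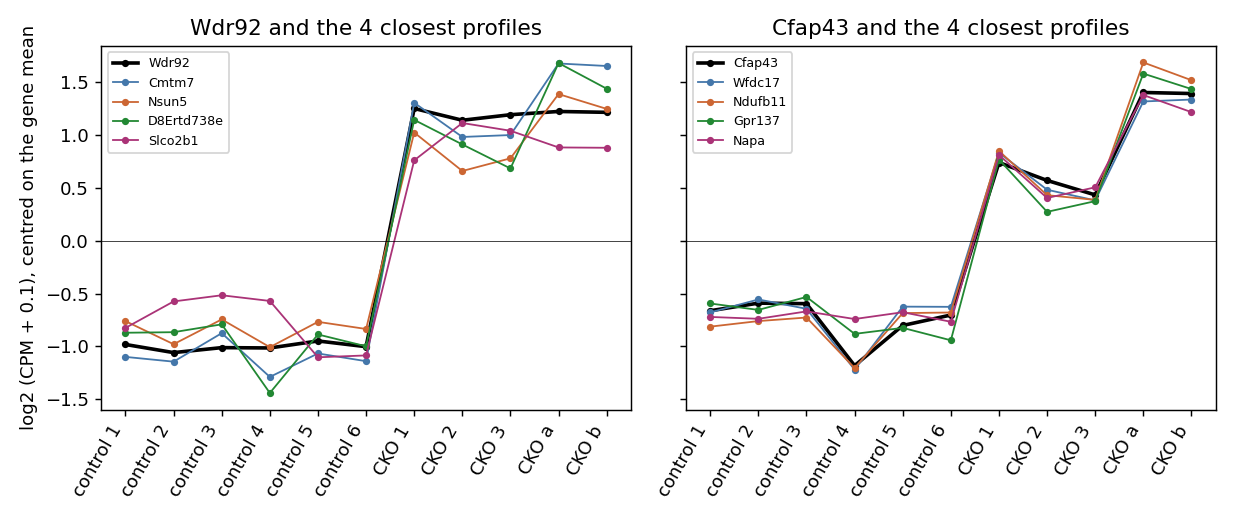
Log2 (CPM + 0.1), centred on each gene's mean (vertical axis), in each library (horizontal axis), for Wdr92 (left) and Cfap43 (right) in black and the 4 genes with the closest profiles in colour. On this TMM-scaled measure Wdr92 is flat within each group, and the Cfap43 profile and its 4 closest step up again in CKO a and CKO b.

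Neighbouring genes could not be compared, since none within 100 kb of either gene was among the genes held. In RefSeq, Pno1 lies 304 bp from Wdr92, before its start, and Ppp3r1 lies 11513 bp away. The GENCODE M21 model of Wdr92 starts at 17182107 and overlaps both. Sfr1 lies 1269 bp from Cfap43, the microRNA gene Mir8090 lies inside it, and the GENCODE model of Cfap43 reaches to 47919287, over Gsto1, Gsto2 and Itprip. These overlaps are of gene spans, and exons were not compared. Whether counting used strand is not given in the sources used here. Where exons of the overlapping genes share sequence with those of Wdr92 or Cfap43, if they do, their reads may not have been told apart.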

How the data were processed

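RNA of 6 control and 5 CKO libraries was analysed. The submitters' processing notes name Bowtie2, RSEM, DESeq2 and GRCm38, with no versions or settings. Per the file headers, the values are TPM (scaled by the authors to the transcripts of the library), FPKM (scaled by the authors to fragments and length) and read counts. The deposited counts are expected counts, estimated per gene and mostly not whole, and were rounded before testing. The table was held in part: of 1293 genes, 1141 had a value in every library and 152, blank in at least 1, were left out of tests. The 2 columns of counts of CKO a and CKO b match the group but no single sample, so 4 columns of TPM and FPKM were left aside, and both were placed in set 2 by elimination.

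The members and all gene lists were chosen with earlier results of these data known. Library totals came from counts, FPKM and GENCODE M21 lengths of 28 genes with 1 transcript (control 1: 20667531, 95% interval 19118206 to 21279284). Those of CKO a and CKO b were estimated from the mean share held in CKO 1 to 3. Effective lengths came from counts and FPKM where the mean control FPKM was at least 0.2. The fit of the counts, on group and set, used edgeR 4.0.16 (R 4.3.3) with TMM, filterByExpr and the 2-sided quasi-likelihood test. Benjamini-Hochberg adjusted p under 0.05 was called. The set comparisons used a mean per group and set, and intervals used the 7 residual degrees of freedom. Alternatives were DESeq2 1.42.0, limma 3.58.1 on log2(TPM + 1) and log2(TPM + 0.1) with TPM of at least 0.5 in 3 libraries, recovered totals, loess length offsets (span 0.5), other filters, no set term, each set alone, a replicate block and each library left out. TMM over the 9 libraries with a recovered total was added after seeing the data.

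The named genes are Wdr92, Cfap43, the 12 tested list genes with the highest mean CPM, and for each member the 4 with the closest profile, leaving out predicted names. The other 5 list genes were added after their values were seen. The steps were tested on simulated data of the CKO against control comparison over 770 genes. Of genes changed 1.5-fold 55.2% were called, as were 80.6% changed 2-fold and 97.0% changed 4-fold, and 2.52% of calls were false. The simulation changed a minority of genes in random directions, with no set effect and no length trend. In the real data 71.4% of genes were called, so these rates do not carry over to them. RefSeq names and positions are of GRCm38.p6, which held 1275 of the gene IDs, and both promoters were found there.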

Additional observations from a re-analysis of the deposited data

Results flagged for a closer look

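The difference between CKO and control was larger in set 2 than in set 1 for Cfap43 by 1.09 on the log2 scale, by edgeR's test of the difference itself. Among the genes with profiles closest to it, set 2 exceeded set 1 by 0.90 for Wfdc17, 1.09 for Ndufb11, 1.30 for Gpr137 and 0.72 for Napa. Among those closest to Wdr92, it did so by 0.67 for Cmtm7, 0.51 for Nsun5 and 0.87 for D8Ertd738e. Among the cilia and dynein genes, it did so by 0.57 for Cdk20, 0.88 for Dynlt1c, 1.42 for Gas8 and 0.67 for Ttll3. The Gas8 controls also differed between sets, as given above. Set 2 minus set 1 was -2.74 for Ccp110, -1.39 for Wdr90 and -0.62 for E2f4.

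A single library stood far from the others of its group in 4 of 54 groups of levels looked at. The rate of about 1 in 20 that chance gives for unrelated groups does not apply here, since 3 of the 4 are genes picked for profiles like those of Wdr92 and Cfap43. The gap to the nearest library took 0.772 of the group's range for Ift140 in CKO b. In control 4, which was also the lowest control for Cfap43, it took 0.630 for D8Ertd738e, 0.780 for Wfdc17 and 0.710 for Ndufb11. The cause was not tested.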

How the results depend on the processing

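Wdr92 and Cfap43 stayed higher in CKO under every alternative run, with differences of 2.21 to 2.25 and 1.65 to 1.85 with each library left out in turn. The size moved to 2.62 and 2.55 with the length trend removed, 1.94 and 0.97 with recovered totals, 1.46 and 0.23 on log2(TPM + 1), 1.47 and 0.45 on log2(TPM + 0.1), and 2.27 and 1.30 with TMM over the libraries with a recovered total. For Cfap43 it was 1.24 in set 1 alone and 2.36 in set 2 alone. The near-zero difference of the Wdr92 change between sets turned sign with DESeq2 (0.0078), with at least 1 CPM in 5 libraries (0.025), with the length trend removed (0.17) and without control 2 (0.0030), over -0.048 to 0.0030 with each library left out. Genes called between the control sets, 67 of 844 (192 at an unadjusted p under 0.05), were 106 with DESeq2, 37 on log2(TPM + 1) and 21 on log2(TPM + 0.1), and 20 to 159 with each library left out, moving by over 1.5 times without control 1, 2, 3, 5 or 6 or CKO 1. With each library left out, genes called between CKO and control numbered 521 to 564, those with a difference between sets 219 to 396, and cilia and dynein genes 12 to 14. Over the other alternatives, genes called between CKO and control numbered 479 (replicate block) to 591 (log2(TPM + 1)), and cilia and dynein genes 10 (recovered totals) to 14. Among the latter, signs turned on log2(TPM + 1), log2(TPM + 0.1) and with recovered totals for Csnk1d (-0.66, -0.67, -0.19), Dynlt1f (-0.17, -0.18, -0.13), Rsph3b (-0.62, -0.66, -0.13) and Unc119b (-0.57, -0.59, -0.13). On the 2 TPM scales they turned for E2f4 (-0.42, -0.42), Gas8 (-0.11, -0.11) and Ttll3 (-0.39, -0.43). With the length trend removed they turned for Dynlt1f (-0.068) and E2f4 (-0.067), which was also at -0.28 in set 2 alone and -0.0047 without CKO 3, the lowest of -0.0047 to 0.18 with each library left out. The cause was not tested.

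Replicate numbers 1 to 3 are shared by the groups of set 1. Deviations of same-numbered libraries correlated at 0.103, 0.055 and 0.227, so they do not all pass 0.1 and the numbers were not taken to pair the libraries, although each library correlated best with its own number. With the replicate block the differences were 2.21 for Wdr92 and 1.24 for Cfap43, and 479 genes were called, against 499 in set 1 without it. At 24.9 to 39.3 reads in the controls, counting error limits what can be said of Cfap43.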
